A study of Mus musculus with 6 samples.

Results

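The histone deacetylase genes were described in c-Kit+ leukemia cells sorted from mouse spleen. The 10 genes Hdac1, Hdac2, Hdac3, Hdac4, Hdac5, Hdac6, Hdac7, Hdac8, Hdac9 and Hdac11 were chosen by symbol from 22180 named genes, and the probe set with the highest mean over the arrays stood for each gene. All 10 were measured, and 9 of them entered the test among 15526 tested genes. Hdac9 lay below the level filter of 4.13 on the log2 scale. The series holds 6 arrays of total RNA, 3 for each genotype, with 1 sample per array. The genotype called the control here is Mx1-Cre, Cbfb+/56M. It carries Mx1-Cre, a recombinase under the interferon-responsive Mx1 promoter, and Cbfb+/56M, a conditional allele that yields the fusion protein of inv(16) acute myeloid leukemia. The other genotype is Chd7f/f, Mx1-Cre, Cbfb+/56M, called Chd7f/f here, in which Chd7, a chromatin remodeller gene, is floxed as well. Mice of both genotypes were given pIpC, which induces Cre, and ENU, a mutagen, and were sampled at the end stage of leukemia; no source used here gives their ages. Nothing in the labels says that each sample came from a separate mouse, although the design text calls them independent, so a p-value here speaks only of the spread among these samples.

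Histone deacetylases remove acetyl groups from lysines of histones and other proteins, and on histones this is generally linked to transcriptional repression. Class I enzymes (Hdac1, Hdac2, Hdac3, Hdac8) are mostly nuclear, and Hdac1, Hdac2 and Hdac3 work as the catalytic subunits of corepressor complexes. Class IIa proteins (Hdac4, Hdac5, Hdac7, Hdac9) have little catalytic activity of their own, bind MEF2 transcription factors and leave the nucleus when kinases phosphorylate them and 14-3-3 proteins bind. Hdac6, of class IIb, is a cytoplasmic deacetylase of tubulin, and Hdac11 is the class IV enzyme. HDAC1 and HDAC8 are known as cofactors of the Cbfb-MYH11 fusion protein, which binds RUNX1.

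Levels were RMA values on the log2 scale, which the authors had normalised between arrays, so a difference of 1 is a doubling. A level depends on how its probes respond as well as on the RNA, so levels were compared between arrays for a given gene and not between genes. Kit, the gene of the sorted receptor, lay between 11.7 and 12.5 on the 6 arrays. The 9 mast cell and basophil markers ran from 3.68 to 13.1, with Cpa3 at 12.9 to 13.1 and 1 marker below the filter, and T and NK cell markers lay between 3.31 and 5.46, with 4 of 8 measured markers below the filter. Chd7 had levels of 6.34 ± 1.12 in control samples and 5.96 ± 0.51 in Chd7f/f samples (SD, n = 3 each), with overlapping values. No source used here says which part Cre removes or where the probes lie, so the Chd7 level is no check of the deletion. Among 15526 genes, 0 passed an adjusted p of 0.05 and 286 had an unadjusted p under 0.05 (limma). Control replicate 1 and Chd7f/f replicate 1 stood apart from the other arrays of their genotypes, and the differences of the deacetylase genes that rest on them are given with and without them. The fit without both was added after the values were seen. Leaving out the lowest or highest array of a gene moves its difference by construction, so these values only describe what the difference rests on.

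Promoter windows are printed for Hdac2 and Hdac6, which shared their lowest array, and for the fusion cofactor gene Hdac8. They are also printed for Hdac5 and Hdac11. On the Hdac11 probe set used here, this pair had the closest deviations over the arrays among the tested genes of the family. Each runs from 250 bases before to 50 bases after the gene's start in RefSeq (GRCm38.p6), 5′ to 3′ on the gene's strand. The table held windows for 8 of the 10 genes, 12 windows in all, and the genes without an entry were Hdac1 and Hdac3. Capitals mark 3 motifs on either strand: the GC box GGGCGG, the CCAAT box CCAAT and the RUNX core TGTGGT.
Hdac2, chr10:36974294-36974593, plus strand: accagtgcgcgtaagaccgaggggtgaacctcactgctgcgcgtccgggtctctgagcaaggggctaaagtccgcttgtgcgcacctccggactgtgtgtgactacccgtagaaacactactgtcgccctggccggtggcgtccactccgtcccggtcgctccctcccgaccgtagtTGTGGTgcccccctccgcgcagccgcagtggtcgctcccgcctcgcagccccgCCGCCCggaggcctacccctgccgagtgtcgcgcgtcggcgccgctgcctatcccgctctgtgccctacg
Hdac6, chrX:7947840-7948139, minus strand: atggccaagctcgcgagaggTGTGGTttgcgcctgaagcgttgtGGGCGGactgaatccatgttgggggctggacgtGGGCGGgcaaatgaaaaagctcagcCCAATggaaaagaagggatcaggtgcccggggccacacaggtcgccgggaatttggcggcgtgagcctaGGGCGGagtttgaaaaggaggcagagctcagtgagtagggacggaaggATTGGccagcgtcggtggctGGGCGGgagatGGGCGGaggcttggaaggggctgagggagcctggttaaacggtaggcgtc
Hdac5, chr11:102230123-102230422, minus strand: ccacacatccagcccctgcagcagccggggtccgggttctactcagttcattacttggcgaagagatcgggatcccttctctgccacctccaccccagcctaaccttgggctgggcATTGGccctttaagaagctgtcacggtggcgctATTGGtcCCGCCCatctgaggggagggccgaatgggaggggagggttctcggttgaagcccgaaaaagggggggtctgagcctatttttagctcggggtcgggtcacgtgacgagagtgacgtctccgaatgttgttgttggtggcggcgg
Hdac11, chr6:91156565-91156864, plus strand: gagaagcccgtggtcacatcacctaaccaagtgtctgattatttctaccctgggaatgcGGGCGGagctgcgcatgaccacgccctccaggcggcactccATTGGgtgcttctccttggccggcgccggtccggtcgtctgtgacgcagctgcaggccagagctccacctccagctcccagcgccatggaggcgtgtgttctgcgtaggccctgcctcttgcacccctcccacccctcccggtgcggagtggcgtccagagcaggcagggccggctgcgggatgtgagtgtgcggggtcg
Hdac8, chrX:102505109-102505408, minus strand: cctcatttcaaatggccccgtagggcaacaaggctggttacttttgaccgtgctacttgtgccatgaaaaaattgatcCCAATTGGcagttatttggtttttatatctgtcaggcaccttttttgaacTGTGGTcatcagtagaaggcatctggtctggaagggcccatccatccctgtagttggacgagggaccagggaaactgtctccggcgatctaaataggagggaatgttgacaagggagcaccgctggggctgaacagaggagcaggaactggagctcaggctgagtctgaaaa

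The RUNX core was present in 3 of the 12 windows, those of Hdac2, Hdac6 and Hdac8, where it began 73, 230 and 122 bases before the start. It was present in 16.8% of the 32851 windows in the table. Hdac7 shared its lowest array with Hdac2 and Hdac6, but its windows held no RUNX core and are not printed. The GC box was found in 6 of the 12 windows against 35.7% of all windows, and the CCAAT box in 5 of 12 against 37.4%. The GC box occurred 5 times in the window of Hdac6 and 5 times in that of Hdac4, which is not printed. In the Hdac8 window a CCAAT and an ATTGG share 2 bases, so the capitals run through both. A match is a run of letters and shows neither binding nor use of the site in these cells.

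No deacetylase gene differed between the genotypes beyond the spread between samples. Of the 9 tested genes 0 passed an adjusted p of 0.05, where 0% of all tested genes did, and 0 had an unadjusted p under 0.05 (limma), where the share over all genes was 1.84%. Values of the genotypes overlapped for all 9, and did not overlap for 6.81% of tested genes. The differences, Chd7f/f minus control, were negative for 6 genes and positive for 3, with a median of -0.17 against -0.027 over all tested genes. The 95% intervals of all 9 genes held 0, and their standard errors ran from 0.159 to 0.403. A p that misses the threshold does not show that the genotypes were alike. With 3 arrays in each group the smallest p of an exact two-sided permutation test is 0.1, and the 10 genes had values from 0.3 to 0.9.

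**Figure D1:**
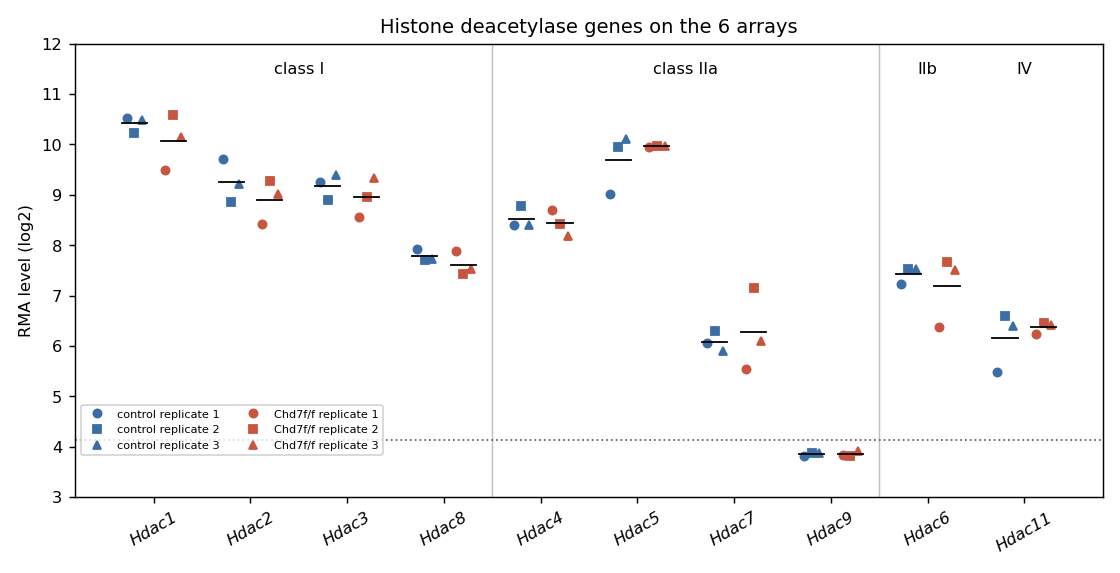
RMA level (log2) of the 10 deacetylase genes on each array, grouped by class; blue points are control and red points Chd7f/f samples, the shape gives the replicate number, black bars are means of 3 and the dotted line is the filter level of 4.13. Hdac1, Hdac2, Hdac3, Hdac6 and Hdac7 have their lowest point in Chd7f/f replicate 1, and Hdac5 and Hdac11 in control replicate 1.

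Among the class I genes, Hdac1, which encodes a catalytic subunit of the SIN3, NuRD and CoREST complexes, was at 10.53, 10.23 and 10.49 in control replicates 1, 2 and 3. It was at 9.50, 10.58 and 10.14 in the Chd7f/f replicates in the same order. Chd7f/f replicate 1 was the lowest of the 6 arrays and Chd7f/f replicate 2 the highest, so the range of Chd7f/f samples enclosed that of the control. The difference was -0.34 (SE 0.28, 95% interval -1.02 to 0.34; limma, adjusted p = 0.9998). Leaving out Chd7f/f replicate 1 brought it to -0.056 and leaving out Chd7f/f replicate 2 to -0.60, and without both arrays numbered 1 it was 0.00075. The Hdac1 symbol also has a pseudogene in the RefSeq table, Hdac1-ps, and whether its transcripts add to this probe set was not tested.

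Hdac2, the close relative of Hdac1 in the same complexes, was at 9.71, 8.87 and 9.22 in the control and at 8.42, 9.28 and 9.02 in Chd7f/f samples. The highest value was that of control replicate 1 and the lowest that of Chd7f/f replicate 1, while the other 4 arrays lay between 8.87 and 9.28. The difference was -0.36 (SE 0.30, 95% interval -1.08 to 0.36; limma, adjusted p = 0.9998). Leaving out Chd7f/f replicate 1 gave -0.12, leaving out control replicate 1 gave -0.14, and leaving out both gave 0.10.

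Hdac3, the catalytic subunit of NCoR and SMRT complexes, was at 9.26, 8.90 and 9.38 in the control and at 8.57, 8.95 and 9.34 in Chd7f/f samples. Chd7f/f replicate 1 was again lowest, and the other 2 Chd7f/f values lay within the control range. The difference was -0.23 (SE 0.24; limma, adjusted p = 0.9998), or -0.036 without Chd7f/f replicate 1.

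Hdac8, an X-linked class I gene whose enzyme acts on cohesin and is a cofactor of the fusion protein, varied least of the tested genes of the family. Its levels were 7.92, 7.70 and 7.72 in the control and 7.88, 7.43 and 7.52 in Chd7f/f samples. Chd7f/f replicates 2 and 3 were the lowest arrays, and Chd7f/f replicate 1 lay inside the control range. The difference was -0.17 (SE 0.16, 95% interval -0.55 to 0.22; limma, adjusted p = 0.9998). It kept its sign without each array in turn, from -0.30 to -0.079, and was -0.23 without both arrays numbered 1.

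Of the class IIa genes, Hdac4 was at 8.40, 8.77 and 8.40 in the control and at 8.69, 8.43 and 8.18 in Chd7f/f samples. The 2 genotypes overlapped widely, and the difference was -0.091 (SE 0.18; limma, adjusted p = 0.9998). It turned to 0.033 without control replicate 2 and to 0.038 without Chd7f/f replicate 3.

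Hdac5 was at 9.02, 9.95 and 10.11 in the control and at 9.95, 9.97 and 9.98 in Chd7f/f samples. Control replicate 1 alone was low, 0.93 under the next array, while the SD of the 3 Chd7f/f values was 0.015. The difference of 0.27 (SE 0.29, 95% interval -0.43 to 0.97; limma, adjusted p = 0.9998) rested on that array, and was -0.062 without it.

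Hdac7, the class IIa member best known from thymocytes and endothelium, had the largest spread of the family. It was at 6.06, 6.29 and 5.89 in the control and at 5.54, 7.16 and 6.11 in Chd7f/f samples. Both the lowest and the highest array were Chd7f/f, replicates 1 and 2. The difference of 0.19 (SE 0.40, 95% interval -0.79 to 1.17; limma, adjusted p = 0.9998) became 0.55 when Chd7f/f replicate 1 was left out and -0.26 when Chd7f/f replicate 2 was.

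Hdac9 was at 3.82, 3.88 and 3.88 in the control and at 3.83, 3.82 and 3.91 in Chd7f/f samples, a range of 0.093. Its mean lay at the 23.9th percentile of named genes, where the other 9 genes lay between the 61.5th and the 96.0th. Levels this low may lie near background, so the narrow range does not show a steady level of RNA.

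Hdac6, the X-linked class IIb gene, was at 7.22, 7.52 and 7.53 in the control and at 6.38, 7.66 and 7.51 in Chd7f/f samples. Chd7f/f replicate 1 lay 0.84 under the next lowest array, and the other 5 arrays spanned 0.44. The difference was -0.24 (SE 0.35, 95% interval -1.08 to 0.60; limma, adjusted p = 0.9998), and it turned to 0.16 without Chd7f/f replicate 1. Control replicate 2 was the array with Xist, the RNA of the inactive X chromosome, at 10.1, against 3.30 to 3.88 elsewhere. The Y-linked gene Eif2s3y was at 4.43 on it, against 8.72 to 9.11 elsewhere. These are the values of a female sample, so sex was not balanced between the genotypes, and it was not in the model. In control replicate 2 the X-linked genes Hdac6 and Hdac8 were at 7.52 and 7.70, within the range of the other arrays.

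Hdac10, the other class IIb gene, is not among the 10 genes and was looked at after the other values were known. It was at 8.16, 7.96 and 8.46 in the control and at 7.66, 8.51 and 8.28 in Chd7f/f samples, again lowest in Chd7f/f replicate 1. Its difference was -0.045 (limma, adjusted p = 0.9998), and 0.20 without that array.

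Hdac11, the class IV gene, was at 5.48, 6.60 and 6.40 in the control and at 6.24, 6.45 and 6.41 in Chd7f/f samples. Control replicate 1 alone was low, as for Hdac5. The difference of 0.21 (SE 0.30; limma, adjusted p = 0.9998) turned to -0.13 without control replicate 1. Hdac11 was the only gene of the family with 2 probe sets, and they disagreed. The second probe set was at 6.01, 6.09 and 5.80 in the control and at 5.25, 5.49 and 5.81 in Chd7f/f samples, a difference of -0.45, and control replicate 1 was not low on it. With the mean of both probe sets the difference of the gene was -0.12.

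**Figure D2:**
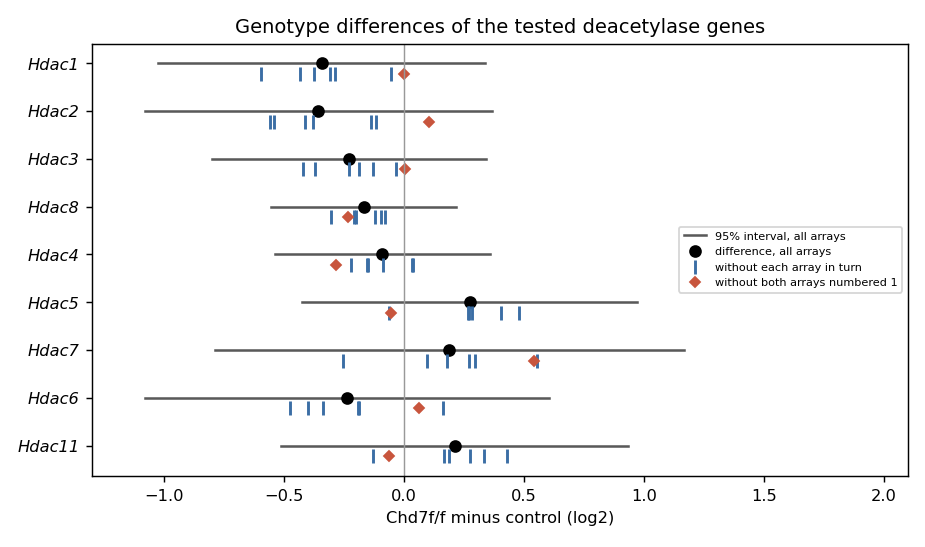
Difference in level, Chd7f/f minus control (log2), of the 9 tested deacetylase genes; black points and bars are the fit to all arrays with its 95% interval, blue ticks the fits without each array in turn and red diamonds the fit without both arrays numbered 1. Every interval holds 0, and Hdac8 keeps its sign in all of these fits.

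The spread between samples was wide for this family. The SD over the 6 arrays was above the median of tested genes, 0.214, for 8 of the 9 tested genes, and ran from 0.194 for Hdac8 to 0.544 for Hdac7. That of Hdac6 was 0.473 and that of Hdac2 0.431. Chd7f/f replicate 1 was the lowest array for 5 of the 9 genes (Hdac1, Hdac2, Hdac3, Hdac6 and Hdac7), and for 27.7% of all tested genes. Control replicate 1 was the lowest array for 2 of the 9, Hdac5 and Hdac11, and for 16.5% of all tested genes.

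The deviations of each gene from its own mean over the arrays show these patterns on a common scale. In Chd7f/f replicate 1 Hdac6 deviated by -0.92, Hdac1 by -0.75, Hdac2 by -0.66, Hdac7 by -0.63 and Hdac3 by -0.50. On the same array Hdac4, Hdac8 and Hdac5 deviated by 0.22, 0.19 and 0.12. So the class IIa genes Hdac4 and Hdac5 and the class I gene Hdac8 did not share the low value of the others. In control replicate 1 Hdac5 deviated by -0.81 and Hdac11 by -0.79, while Hdac2 was at 0.62 and Hdac1 at 0.29.

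Some marker lists were farthest from their mean on the same 2 arrays, and others on other arrays. The mean deviation of 19 measured proliferation genes of 20 listed was -1.56 in Chd7f/f replicate 1, and it lay between -0.096 and 0.44 in the control and at 0.46 and 0.35 in the other Chd7f/f samples. All 19 were lower in the Chd7f/f mean, as were 8741 of all 15526 tested genes, and none had an unadjusted p under 0.05 (limma). The 6 measured erythroid genes of 12 listed were at 0.99 in control replicate 1 and at -0.91 in Chd7f/f replicate 1. The other control arrays were at -0.50 and 0.0050 and the other Chd7f/f arrays at -0.079 and 0.49. These genes did not move together. In control replicate 1 Slc4a1 was at 11.5, against 5.92 to 9.14 elsewhere, and Tfrc at 11.1, against 6.36 to 9.46 elsewhere. Car2 was also highest on that array, Car1 was lowest there at 11.1, and Klf1 and Epor were neither. The 9 mast cell and basophil genes were at -0.76 in control replicate 1, at 0.14 and 0.13 in the other control samples and between -0.081 and 0.41 in Chd7f/f samples.

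The mean deviation of the 8 stem and progenitor genes was highest in Chd7f/f replicate 1, at 0.62. Kit, Cd34, Cd33 and Gata2 were highest on that array, with Cd34 at 9.47 there against 5.61 to 7.64 elsewhere. Runx1, Myb, Flt3 and Meis1 were highest on other arrays. The 12 measured genes of monocytes and macrophages, of 13 listed, were at 0.89 in Chd7f/f replicate 3 and at -0.71 in control replicate 3. Of these 11 were higher in the Chd7f/f mean, as were 6785 of all 15526 tested genes. Mpeg1 alone of them had an unadjusted p under 0.05 (limma), with values that did not overlap. Over all tested genes 0.696% were higher with such a p and 2.45% higher without overlap. Among tested genes of the other marker lists Car1, Ly6g and Il4 were also higher in Chd7f/f samples without overlap. The 10 neutrophil genes were also highest in Chd7f/f replicate 3, at 0.75. Mean deviations of the lists of B cells and of T and NK cells lay between -0.18 and 0.31 on every array. Of the 7 measured B cell genes 4 lay below the filter. Cd79a, which varied most of the 7, was at 7.18 in control replicate 2, against 4.97 to 5.26 elsewhere. The 5 measured megakaryocyte and platelet genes were at 0.074 to 0.45 in the control and at -0.42 to -0.0057 in Chd7f/f samples. All 3 tested ones were lower in the Chd7f/f mean, each with overlapping values. Gp9 among them was at 10.8 in control replicate 1, against 6.41 to 7.71 elsewhere. The part of dividing cells or of cell types in the levels of the deacetylase genes was not tested, and in bulk samples fewer cells of a type and less RNA per cell cannot be told apart.

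**Figure D3:**
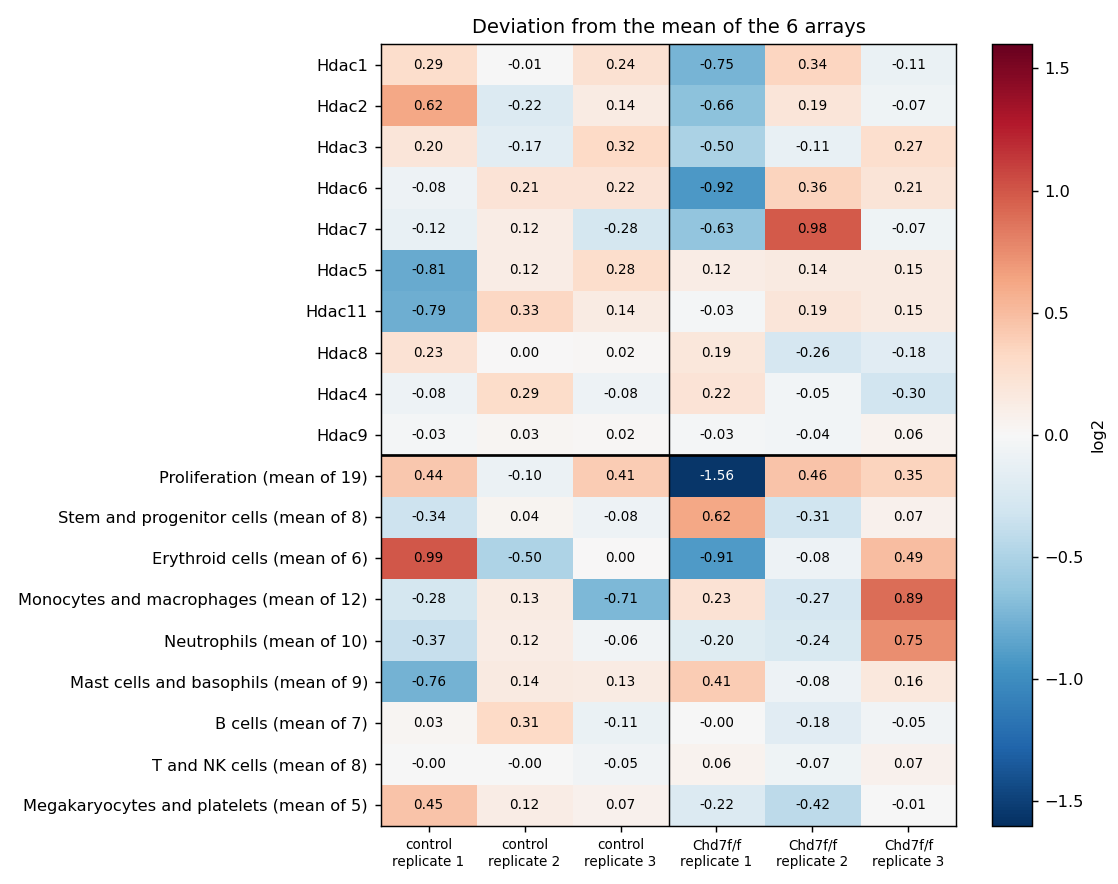
Deviation (log2) of each deacetylase gene from its mean over the 6 arrays, with the mean deviation of 9 marker lists below the line; columns are the 6 arrays and the colour scale and printed values give the deviation. The low values of Hdac1, Hdac2, Hdac3, Hdac6 and Hdac7 stand in the column of Chd7f/f replicate 1. There the proliferation list is at -1.56, the erythroid list at -0.91 and the stem and progenitor list at 0.62. Low values of Hdac5 and of the Hdac11 probe set used here stand in the column of control replicate 1. There the erythroid list is at 0.99 and the mast cell list at -0.76.

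Pairs of family members were compared by the root mean square difference of their deviations over the 6 arrays, where a smaller value means more alike patterns. The smallest among the pairs of tested genes was 0.121 for Hdac5 and Hdac11, of classes IIa and IV. Their largest deviations, -0.81 and -0.79, were both in control replicate 1. This holds for the Hdac11 probe set with the highest mean, as the second Hdac11 probe set was not low on that array. Hdac1 and Hdac2, which share their complexes, followed at 0.182. Hdac8 and Hdac4 were at 0.205, a value close to their own SDs over the arrays, 0.194 and 0.219. The largest was 0.687 for Hdac2 and Hdac5. Closeness did not follow class in every case: Hdac1 was nearer to Hdac6, at 0.229, than to Hdac3, at 0.273. Hdac2 and Hdac3 were also at 0.273, while Hdac8 was at 0.368 to 0.464 from the other class I genes.

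Over all tested genes, those with deviations nearest to those of Hdac1 were Cnih1, Gar1 and G3bp1. Their root mean square differences were 0.0593, 0.0728 and 0.0784 against a median of 0.405 over all genes. For Hdac8 they were Asic3, Tcf20 and Arl2bp, at 0.0304, 0.0351 and 0.0403 against a median of 0.261. Of the 9 tested deacetylase genes, Hdac7 and Hdac6 had the largest SDs. Nearest to Hdac7 were Ap1s2, Dcun1d4 and Lrrc42, at 0.0816, 0.138 and 0.147, and nearest to Hdac6 were Mrpl36, Bcs1l and Psmc5, at 0.0499, 0.0612 and 0.0617. With 6 arrays and 15526 genes, close matches are to be found for most patterns, and these are given as a description.

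By class, the mean level of the 4 class I genes was 9.36, 8.92 and 9.20 in control replicates 1, 2 and 3, and ranged from 8.59 to 9.06 over the Chd7f/f replicates. Chd7f/f replicate 1 was lowest and control replicate 1 highest, and the other 4 arrays lay between 8.92 and 9.20. The means of the genotypes were 9.16 ± 0.22 and 8.89 ± 0.26 (SD, n = 3 each), a difference of -0.27 that was -0.13 without Chd7f/f replicate 1, -0.18 without control replicate 1 and -0.031 without both.

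The 4 class IIa genes had mean levels of 6.83, 7.22 and 7.07 in the control and 7.00, 7.34 and 7.04 in Chd7f/f samples. Control replicate 1 was the lowest array here, and the genotypes overlapped. The difference of 0.091 became -0.016 without control replicate 1 and also without Chd7f/f replicate 2. Without Hdac9, which lay below the filter, the class means were 8.10 ± 0.26 in the control and 8.22 ± 0.26 in Chd7f/f samples (SD, n = 3 each).

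The gap between the class I and class IIa means within an array, in which an effect common to all probes of an array cancels, was 2.53, 1.70 and 2.13 in the control and 1.59, 1.72 and 1.96 in Chd7f/f samples. It was widest in control replicate 1 and narrowest in Chd7f/f replicate 1, and the 2 genotypes overlapped. The size of the gap itself depends on the probes, and it is only its change between arrays that can be read.

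**Figure D4:**
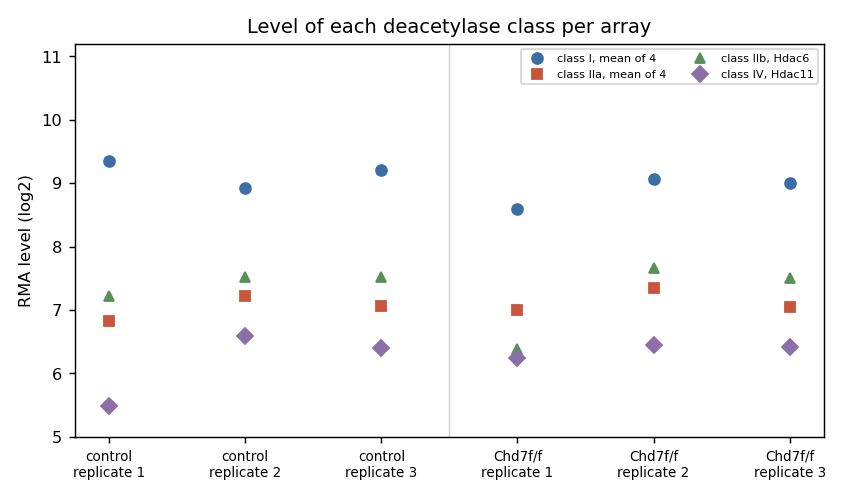
Mean RMA level (log2) of each deacetylase class on each array; circles are class I (4 genes), squares class IIa (4 genes), triangles Hdac6 and diamonds Hdac11. Heights are to be compared along an array series and not between classes; class I and Hdac6 are lowest in Chd7f/f replicate 1, and class IIa and Hdac11 in control replicate 1.

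The partners and opponents of the deacetylases were taken from 11 lists with 89 different genes, of which 83 were measured and 82 tested. None passed an adjusted p of 0.05 (limma), and 4 had an unadjusted p under 0.05, 3 higher and 1 lower in Chd7f/f samples, where 0.696% and 1.15% of all tested genes did so. Values of the genotypes did not overlap for 5 of the 82, 3 higher and 2 lower, where the shares over all genes were 2.45% and 4.37%. The differences were positive for 42 and negative for 40, with a median of 0.0055.

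The scaffolds and subunits of the class I complexes differed little. Of the 12 NuRD genes, the remodelling and deacetylase complex, 5 were higher and 7 lower, with a median of -0.022. Chd3, a NuRD ATPase of the CHD family, was at 7.91, 8.49 and 8.37 in the control and at 8.75, 8.51 and 8.53 in Chd7f/f samples, 0.34 higher with no overlap (SE 0.18), and 0.16 higher without control replicate 1. Gatad2a, another NuRD subunit, differed by -0.13.

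Of the 14 SIN3 genes measured of 15, 6 were higher and 8 lower. Suds3, a SIN3 subunit, differed by 0.19, and Rbbp4, a histone chaperone shared with NuRD, by -0.17, or 0.0079 without Chd7f/f replicate 1. Of 8 CoREST genes 6 were higher and 2 lower, and Zmym3 and Rcor3 differed by 0.20 and 0.26; without Chd7f/f replicate 1 they were at 0.12 and 0.011.

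In the NCoR and SMRT list 3 of 5 genes were measured. There Gps2 differed by 0.11 and Tbl1x, a WD40 subunit, by -0.073, with values of 0.053 to 0.20 and -0.20 to 0.083 without each array in turn. In the MiDAC list Dnttip1 differed by 0.15, or 0.035 without control replicate 1, and Trerf1 by -0.062, with values of -0.095 to -0.036 without each array in turn. None of the genes of these 5 complexes had an unadjusted p under 0.05 (limma).

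Histone acetyltransferases, which add the mark that deacetylases remove, held 2 of the 4 genes with an unadjusted p under 0.05. Of the 12 genes 7 were higher and 5 lower in Chd7f/f samples, with a median of 0.020. Ncoa1, a nuclear receptor coactivator with acetyltransferase activity, was at 6.77, 8.37 and 6.50 in the control and at 9.22, 8.55 and 8.26 in Chd7f/f samples. Control replicate 2 lay within the Chd7f/f range, and the other 2 control values were lower than all Chd7f/f values. The difference was 1.46 (SE 0.53; limma, adjusted p = 0.9998), with values from 1.11 to 2.04 without each array in turn.

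Kat6b, a MYST family acetyltransferase gene, was at 7.56, 8.20 and 7.57 in the control and at 8.98, 8.36 and 8.19 in Chd7f/f samples. The ranges met at 8.2, and the difference was 0.74 (SE 0.27; limma, adjusted p = 0.9998), or 0.50 without Chd7f/f replicate 1. Kat2b, named after its values were seen because its samples did not overlap, differed by 0.27, or 0.15 without Chd7f/f replicate 1.

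Of the 7 sirtuins, the NAD-dependent deacetylases, 3 were higher and 4 lower, and Sirt1 and Sirt5 differed by 0.20 and -0.13. Sirt1 was at 0.13 without Chd7f/f replicate 1, and Sirt5 at 0.024 without control replicate 1. The 2 tested BET readers, Brd3 and Brd2, differed by -0.15 and -0.012, with values of -0.28 to 0.055 and -0.11 to 0.070 without each array in turn. No gene of either list had an unadjusted p under 0.05 (limma).

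Around the class IIa enzymes, 8 of the 13 genes of their kinases were higher and 5 lower in Chd7f/f samples. Sik2, a salt-inducible kinase gene, was at 8.80, 9.06 and 8.84 in the control and at 9.84, 9.25 and 9.17 in Chd7f/f samples. The ranges did not overlap, and the difference was 0.52 (SE 0.21; limma, adjusted p = 0.9998), or 0.31 without Chd7f/f replicate 1.

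Prkd3, a protein kinase D gene, was at 5.70, 7.65 and 8.17 in the control and at 8.71, 8.29 and 7.64 in Chd7f/f samples. Its low value was that of control replicate 1, and the difference of 1.04 was 0.30 without that array. Mef2a, a MEF2 factor gene, had a level of 8.40 on that array and of 9.90 to 10.5 on the others, and its difference of 0.58 turned to -0.030 without it. Hdac5 and the Hdac11 probe set used here were low on the same array. Mef2c differed by -0.26, and by 0.059 without control replicate 2.

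Of the 7 genes of 14-3-3 proteins, which hold phosphorylated class IIa proteins in the cytoplasm, 3 were higher and 4 lower. Sfn, the sigma form, was at 8.12, 7.62 and 7.74 in the control and at 7.42, 7.43 and 7.37 in Chd7f/f samples. All Chd7f/f values were below the control values, and the difference was -0.42 (SE 0.16; limma, adjusted p = 0.9998), or -0.27 without control replicate 1. Ywhag, the gamma form, differed by -0.37, also without overlap, and by -0.15 without Chd7f/f replicate 1, its lowest array.

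**Figure D5:**
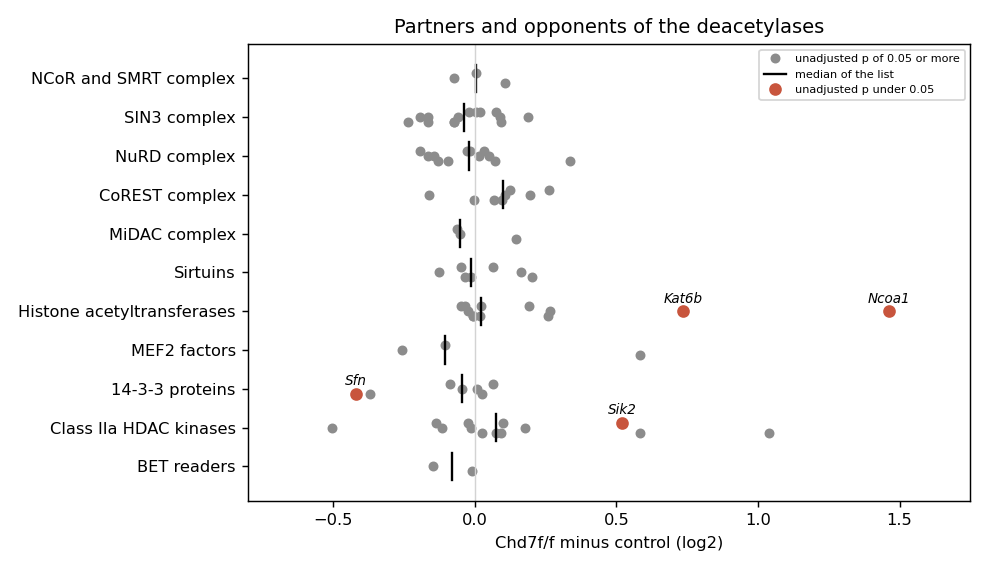
Difference in level, Chd7f/f minus control (log2), of each tested gene in the 11 lists; grey points have an unadjusted p of 0.05 or more, red points, which are named, one under 0.05, and black bars are medians of the lists. The medians of the 11 lists run from -0.10 (MEF2 factors) to 0.10 (CoREST), and Ncoa1 at 1.46 is the farthest from 0.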

How the data were processed

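The authors deposited 1 log2 value per probe set and array, 41345 probe sets with values from 1.78 to 13.5; the submitters' processing notes name RMA and Affymetrix Expression Console, with no settings or build. RMA corrects background, equalises arrays and summarises probes, so differences in total signal are no longer visible, and array medians lay between 4.72 and 4.84. Detection calls were not used here, and precision is limited by how few arrays there are. Probe sets with 1 symbol, 23521 in all, were named from the platform annotation, updated by Entrez identifier; 1814 had several symbols and 16010 none listed. The table held 22180 named genes, 21994 of them in the RefSeq table. Tested genes had a mean level no lower than the 30th percentile of all named genes. Genotypes, taken from the titles, were compared by lmFit and eBayes of limma 3.58.1, run in R 4.3.3 with no covariate, with Benjamini-Hochberg adjustment over all tested genes, and the steps were tested on simulated data. Named were all listed deacetylase genes, control genes, up to 2 genes with the smallest p per list and, for 4 members, the 3 nearest genes; exceptions are marked. The members and lists were chosen with earlier results of these data known. Alternatives covered normalization, filter, probe sets, prior, array weights, replicate block and each array left out; that without both arrays numbered 1 was added after seeing the data.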

Additional observations from a re-analysis of the deposited data

How the results depend on the processing

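All 9 tested deacetylase genes stayed above an adjusted p of 0.05 under the 15 alternatives, with 0.989 the smallest, and 0 genes passed it over all genes or among the partner genes (limma). The smallest unadjusted p of a member was 0.0499, for Hdac1 without Chd7f/f replicate 2, the only setting in which a member had one under 0.05, so that count ran from 0 to 1. Of 150 alternative values of the members 137 kept their direction or stayed within the spread and 13 reversed. Part of the 137 could not have changed. The filters, the prior and the replicate block leave a difference as it is by construction. The mean of probe sets can move Hdac11 alone. Without each array in turn the differences ran from -0.60 to -0.056 for Hdac1, -0.56 to -0.12 for Hdac2, -0.42 to -0.036 for Hdac3, -0.30 to -0.079 for Hdac8, -0.22 to 0.038 for Hdac4, -0.062 to 0.48 for Hdac5, -0.26 to 0.55 for Hdac7, -0.037 to 0.0097 for Hdac9, -0.48 to 0.16 for Hdac6 and -0.13 to 0.43 for Hdac11; class I ran from -0.39 to -0.13 and class IIa from -0.016 to 0.18. Among partner genes and Hdac10 these ranges crossed 0 for Tbl1x (-0.20 to 0.083), Rbbp4 (-0.28 to 0.0079), Sirt5 (-0.26 to 0.024), Mef2a (-0.030 to 0.90), Mef2c (-0.42 to 0.059), Brd3 (-0.28 to 0.055), Brd2 (-0.11 to 0.070) and Hdac10 (-0.22 to 0.20). Without both arrays numbered 1 the class I mean difference moved to -0.031, and Hdac1 turned to 0.00075, Hdac2 to 0.10, Hdac3 to 0.0045, Hdac6 to 0.063, Hdac5 to -0.053 and Hdac11 to -0.065; so did Rcor3 (-0.050), Mef2a (-0.16), Sirt5 (0.0077), Tbl1x (0.099), Rbbp4 (0.14) and Hdac10 (0.18). With the mean of its probe sets Hdac11 was at -0.12, and with array weights Sirt5 and Rbbp4 were at 0.011 and 0.027, Hdac2 at -0.20, Hdac3 at -0.065, Hdac4 at -0.21, Hdac5 at 0.11, Hdac6 at -0.042, Hdac11 at 0.12 and the class I and class IIa mean differences at -0.18 and 0.039. The count of all genes with an unadjusted p under 0.05, 286, was 530 with no filter, 159 with a filter at the 50th percentile, where fewer genes were tested, 571 with array weights and 272 to 481 without each array in turn. That of partner genes, 4, was 0 to 3 without each array in turn, 0 without both arrays numbered 1 and 1 with the replicate block. The cause of these changes was not tested. Same-numbered samples share only a number: their deviations from the genotype means correlated at 0.027, -0.025 and 0.034 across genes, and not every sample correlated best with its own number. The replicate block gave 332 genes with an unadjusted p under 0.05 (limma). Each number occurs once in each genotype, so the block could not change a member's difference.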
